A study of Drosophila melanogaster with 4 samples.

Results

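The 2617 Hairy peaks called on the X chromosome of Kc167 cells are described here, out of 13577 peaks in the deposited list. They are all peaks listed on sequence X, with no selection by score or width. The study profiled Hairy by chromatin immunoprecipitation and sequencing in Kc167, a Drosophila melanogaster line derived from embryos, labelled female, with genotype se/e and stage late embryonic. There were 3 libraries precipitated with KW3-h-D1, a rabbit polyclonal antibody raised against a peptide of Hairy, and 1 input library of chromatin without precipitation. No treatment is labelled, and a single cell line is the only model. The peak list has no value per library, so nothing below has an error between replicates and no difference was tested. Intervals cover counting error only. Those of shares and medians treat peaks as independent, although neighbouring peaks share local signal, so they are too narrow. Any PCR copies among the fragments would make the intervals of folds too narrow as well. The read depth is unknown.

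Hairy is a basic helix-loop-helix repressor of the Hairy/E(spl) family. It binds short DNA sites related to the E box and silences nearby genes through the corepressor Groucho, which it holds with a short motif at its C-terminus. It is best known as a pair-rule protein that divides the early embryo into segments, and it also restrains bristle formation later. The X chromosome is a single large arm in this species. It is present once in males, where a dedicated complex raises its transcription, and as a pair in females. This line is labelled female, and its number of X copies was not measured.

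The score of each peak is the authors' own value, read here as −log10 of the caller's p-value. The reading came from the values, which fall on the steps of a Poisson tail over a constant background of 157.836 fragments. From it a fragment count and a fold over that background were recovered for each peak. The fold refers to an unstated part of a peak, not to its whole width. On X, 2096 peaks lay on the constant background and 521 did not. For those 521, a higher local background would make the true fold over the constant one at least the value given. That their scores rest on a higher local background was not tested. Every number of peaks at a given fold below uses the recovered value and is a minimum on that condition. Folds and numbers given below as "at least" for such peaks rest on it too. Off the constant background lay 19.9% of X peaks (exact binomial interval 18.4 to 21.5%) beside 28.2% of the whole list. On the other large arms the share was 48.6% on 2L, 23.6% on 2R, 32.0% on 3L and 19.1% on 3R.

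Most X peaks were narrow and modest in height. The median X peak was 483 bp wide, with quartiles of 304 and 915 bp, and the widest spanned 7229 bp. Median widths elsewhere were 485.5 bp on 2L, 483 bp on 2R, 452 bp on 3L and 495 bp on 3R. The median score was 15.24 on X, against 16.44 on 2L, 15.24 on 2R, 15.01 on 3L and 15.12 on 3R. A fold of at least 2 was reached by 475 X peaks (18.2%, interval 16.7 to 19.7%), beside 18.8% of the whole list. A fold of at least 3 was reached by 29 X peaks (1.11%), beside 1.19% of the whole list. A fold of at least 4 was reached by 8 X peaks (0.306%), beside 0.246% of peaks on 2L, 2R, 3L and 3R together. The X share of peaks hardly moved with the height asked for. X held 18 of the 100 highest-scoring peaks of the list (18%, interval 11.0 to 26.9%), 93 of the top 500 (18.6%), 180 of the top 1000 (18%, interval 15.7 to 20.5%) and 19.3% of all peaks. In width, score and number of strong peaks, X thus lay inside the range of the other large arms or near the whole list.

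Taller X peaks were wider. The median width was 1285 bp for the 654 X peaks with scores from 23.25 up to 382.82, and 281 bp for the 655 with scores from 6.02 to 11.33. Across the 2617 X peaks, Spearman's rho between width and score was 0.76, and it was 0.75, 0.76, 0.73 and 0.76 on 2L, 2R, 3L and 3R. Both values come from the same called signal, so the caller sets part of this relation. The widest X peaks varied in height. The widest, from 19530820 to 19538048 on release 5, scored 56.24, or 2.50-fold. The next in width, from 2192473 to 2199652, scored 99.93, and that from 18540081 to 18547043 scored 67.5. The peak from 19384664 to 19391170 was 6507 bp wide with a score of 41.83, near 2.26-fold. The fifth widest, from 12627828 to 12634055, scored 154.69 and was also the ninth strongest X peak.

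The layout of X was one of dense stretches and empty ones. Peaks ran from 172038 to 22102999. In 222 bins of 100 kb, the median bin held 8 peaks and the fullest 61, while 37 bins (16.7%) held none and 60 held 1 to 5. The 22 densest bins each held at least 30 peaks and together 827 peaks, or 31.6% of all on X. Peaks covered 9.11% of the X span, against 6.97% on 2L, 10.1% on 2R, 5.77% on 3L and 9.30% on 3R. The median bin held 4 peaks on 2L, 11 on 2R, 4 on 3L and 9 on 3R, and the share of empty bins was 24.2%, 8.61%, 24.0% and 12.9% on these arms. X therefore stood between 2R and 3R on one side and 2L and 3L on the other in peaks per bin. Copy number and depth were not measured on any arm.

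**Figure D1:**
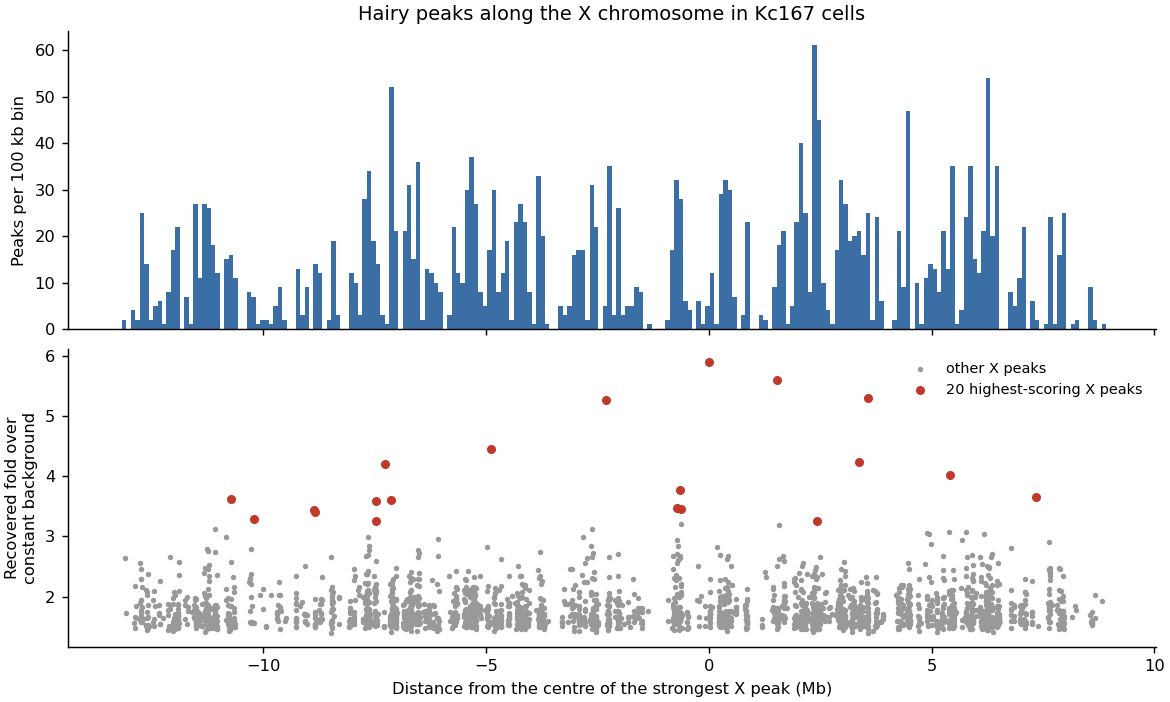
Peaks per 100 kb bin (top, bars) and recovered fold of each peak over the constant background (bottom, points) along X, by distance in Mb from the centre of the strongest X peak. Bins range from 0 to 61 peaks, and the 20 highest-scoring peaks (red) are spread over most of the chromosome.

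The fullest bin, from 15.6 to 15.7 Mb, held 61 peaks that covered 44.1% of it, yet its highest score was 55.82. The bin from 19.5 to 19.6 Mb held 54 peaks over 57.3% of its length and reached 56.24. That from 6.1 to 6.2 Mb held 52 peaks with a highest score of 140.84. The bin from 17.7 to 17.8 Mb held 47 peaks with a highest score of 59.77, and that from 15.7 to 15.8 Mb held 45 with 110.99. These 5 bins differed widely in how many peaks lay off the constant background. The share was 59.6% at 17.7 Mb, 55.6% at 15.7 Mb and 45.9% at 15.6 Mb, but 24.1% at 19.5 Mb and 11.5% at 6.1 Mb. A crowded bin on X could thus lie largely on the constant background or mostly off it.

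At the scale of 1 Mb, the 22 full bins held from 29 to 222 peaks, with a median of 118.5. The densest were 15 to 16 Mb with 222 peaks, 19 to 20 Mb with 216 and 6 to 7 Mb with 192. The sparsest was 3 to 4 Mb, where 29 peaks covered 1.41% of the sequence and no 100 kb bin held more than 9. Next came 21 to 22 Mb, at the proximal end of the called span, with 56 peaks, and the distal 0 to 1 Mb with 60. Median scores per bin ran only from 12.985 to 17.92, and over the 22 bins Spearman's rho between the number of peaks and the median score was -0.12. The fullest bins thus did not have the highest median scores.

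Other properties varied more along X than the median score did. Between 1 and 2 Mb, none of 121 peaks lay off the constant background and 9.09% reached a fold of 2. Between 5 and 6 Mb, 49 of 123 peaks (39.8%) lay off it and 28.5% reached a fold of 2. Between 12 and 13 Mb, 29.2% of 89 peaks reached a fold of 2, the highest recovered share of any full bin, although 4 of its 100 kb bins were empty. This share and that of 5 to 6 Mb are minima on the condition given above, so their order is not firm. From 11 to 12 Mb, only 9.47% of 95 peaks reached a fold of 2. Over the 22 bins, Spearman's rho between peak number and the share off the constant background was 0.26, and that between peak number and the share at a fold of 2 was -0.23.

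The correlation between X bins declined within a few steps. Counts in neighbouring 100 kb bins had a correlation of 0.27 over the 222 X bins, and the correlation was 0.06 for bins 2 steps apart, 0.09 at 5 steps and 0.02 at 10 steps. On 3L, the neighbour correlation was 0.51 and that at 10 steps 0.30, on 2L they were 0.33 and 0.09, on 2R 0.16 and 0.18, and on 3R 0.12 and 0.03. At 2 steps the correlation was 0.18 on 2L, 0.06 on 2R, 0.37 on 3L and 0.06 on 3R, so X was near 2R and 3R there. The variance of counts over their mean, which is near 1 for randomly placed peaks, was 3.82 on X in bins of 10 kb, against 3.39 to 3.78 on the autosomal arms. In bins of 1 Mb it was 26.5 on X, against 44.9 on 2L, 22.4 on 2R, 54.5 on 3L and 19.5 on 3R. At 10 kb, X thus had the highest value of the 5 arms, and at 1 Mb it ranked behind 3L and 2L. Neighbouring bins share their libraries and local depth.

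**Figure D2:**
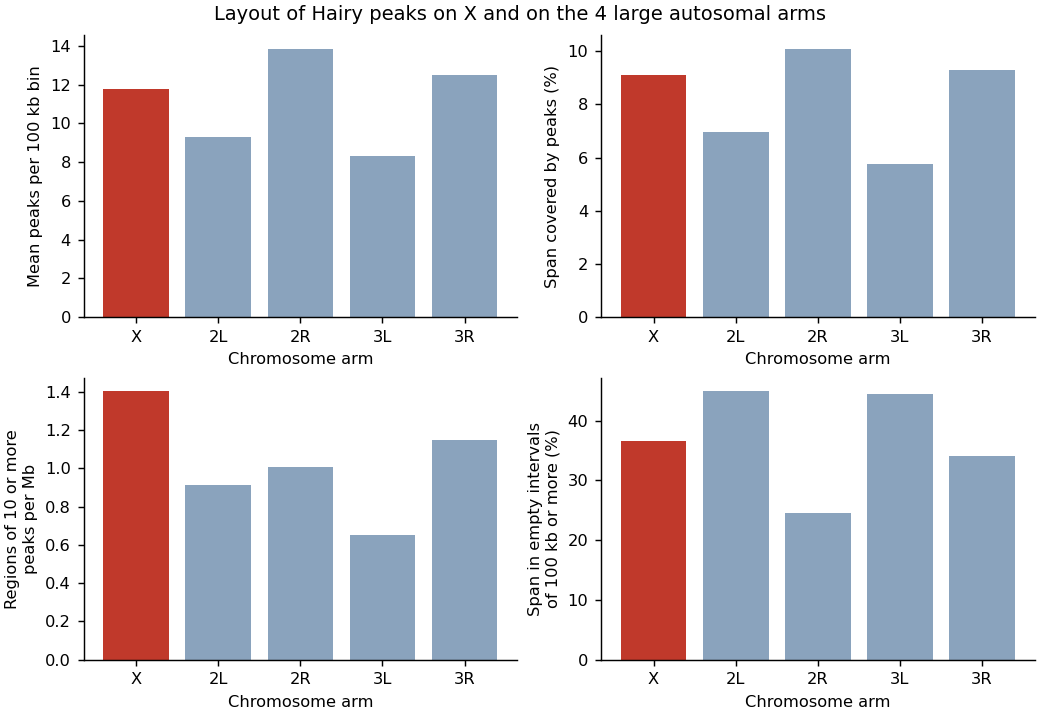
Mean peaks per 100 kb bin, percent of the span covered by peaks, joined regions of at least 10 peaks per Mb, and percent of the span in empty intervals of at least 100 kb, for X (red) and 4 autosomal arms (grey-blue). X is highest only in dense regions per Mb, at 1.40 for a joining gap of 1000 bp (2R leads at 2000 bp), and lies between the autosomal arms in the other 3 measures.

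Neighbouring X peaks were often almost contiguous. The median distance between midpoints was 1551.5 bp, with quartiles of 878.2 and 3321 bp. Of 2616 intervals between neighbouring X peaks, 1207 (46.1%) were at most 500 bp long and 1598 (61.1%) at most 1000 bp. The share at most 500 bp was 43.6% on 2L, 43.3% on 2R, 40.4% on 3L and 45.9% on 3R. A typical X peak had 8 other peaks within 10 kb of its midpoint (quartiles 4 and 11, at most 20) and 25 within 50 kb (quartiles 16 and 33, at most 62).

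Joined over gaps of at most 1000 bp, the X peaks formed 1019 regions. Of these, 473 were single peaks, which made up 18.1% of X peaks. A further 329 regions had 2 or 3 peaks, 186 had 4 to 9, and 31 had at least 10. The 31 dense regions held 374 peaks, or 14.3% of those on X, in 1.98% of the X span. Per Mb, this was 1.40 dense regions on X, against 0.913 on 2L, 1.01 on 2R, 0.652 on 3L and 1.15 on 3R. This order depended on the gap. At 500 bp X had the highest value too (0.226 per Mb, against 0 to 0.179), but at 2000 bp 2R was ahead with 2.78 against 2.67 on X, and at 5000 bp both 2R (4.56) and 3R (4.05) were ahead of X (3.80).

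The dense X regions were short, and peaks covered most of a typical one. Their spans ran from 7.405 to 32.958 kb, with a median of 12.32 kb. Peaks covered from 48.4% to 85.6% of a region, with a median of 73.6%. Joining over gaps of at most 1000 bp sets part of this coverage. These regions fell in 15 of the 23 bins of 1 Mb, with 5 in the bin from 6 to 7 Mb and 4 each in 15 to 16 and 19 to 20 Mb. Of the 31, 12 lay within 100 kb of another. None lay from 16 to 17 Mb or from 17 to 18 Mb, although 180 and 119 peaks were called there, nor from 12 to 13 Mb.

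The region with the most X peaks ran from 18521062 to 18554019, and its 20 peaks covered 80.3% of 32.958 kb. Its peaks scored from 7.7 to 67.5, at least 4 of them reached a fold of 2, and 10 lay off the constant background. The next, from 19530820 to 19555690, held 16 peaks with a highest score of 56.24, of which 9 lay off the constant background. From 5587417 to 5612638, 15 peaks covered 83.3% of 25.222 kb, and their median score of 25.94 was the highest of the 10 fullest regions. Another 15 peaks lay near the distal end, from 522426 to 538048, with a median score of 14.54.

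Regions of 14 peaks ran from 13713202 to 13725521 and from 6566633 to 6585508. Those of 13 peaks ran from 15350420 to 15361958, from 7944283 to 7958334 and from 8481346 to 8491628. In the last of these, all 13 peaks lay on the constant background, none was above 31.03, and the region measured 10.283 kb. Of 6 regions tied at 12 peaks, that from 18665734 to 18684901 is given because its highest score, 178.35, was above that of the others. This peak was the eighth strongest on X. None of the 9 fuller regions held a peak among the 20 strongest of the chromosome.

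Peaks in dense X regions were hardly taller than peaks that stood alone. Their median score was 15.36 (exact binomial interval of the median 14.33 to 16.67, 374 peaks), against 15.01 (14.09 to 15.96) for the 473 single X peaks. A fold of 2 was reached by 17.1% of peaks in dense regions (interval 13.4 to 21.3%) and by 18.2% of single peaks (interval 14.8 to 22.0%). They were wider, with a median of 514.5 bp against 425 bp.

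At the 1000 bp gap, the peaks of dense regions scored above single peaks on each of the other large arms. The medians were 19.935 in dense regions and 14.62 for single peaks on 2L, 17.655 and 14.78 on 2R, 17.38 and 13.64 on 3L, and 18.68 and 13.87 on 3R. By the share of peaks at a fold of 2, X did not stand apart from every arm: it was 30.1% in dense regions and 17.4% among single peaks on 2L, 19.3% and 20.3% on 2R, 30.8% and 15.3% on 3L, and 24.2% and 16.9% on 3R. The ratio of the median scores was 1.02 on X, against 1.36 on 2L, 1.19 on 2R, 1.27 on 3L and 1.35 on 3R. Restricted to peaks on the constant background it was again 1.02 on X, against 1.15 to 1.55 on the other arms. At 2000 bp this restriction left X at 1.02, barely below 2R at 1.03 and 3R at 1.04. There 3L reached 1.19 and 2L 1.32, so X hardly differed from 2R and 3R at that gap. With all peaks, X had the lowest ratio at joining gaps of 2000 bp (1.03 against 1.06 to 1.24) and 5000 bp (0.876 against 0.917 to 1.11) as well. At 500 bp it was 1.10 on X, from 53 peaks, against 1.40 to 2.15 on 3 arms, and 2R had no dense region. The grouping was chosen after seeing the data and the difference between arms was not tested.

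At the 1000 bp gap, the share off the constant background in dense regions was 20.1% on X, against 75.2% on 2L, 47.7% on 2R, 70.1% on 3L and 30.0% on 3R. Among single peaks it was 14.2% on X, against 30.8%, 14.3%, 19.4% and 14.3% on these arms. On X, 14.4% of the peaks off the constant background and 14.3% of those on it lay in dense regions. On 2L these shares were 20.3% and 6.35%, and on 3R 20.2% and 11.1%. At 500 bp the X share off the constant background was lower in dense regions (15.1% of 53 peaks) than among single peaks (17.0%). The shares were 61.9% and 37.8% on 2L, 93.3% and 20.8% on 3L and 31.6% and 15.7% on 3R, and 2R had no dense region. At gaps above 1000 bp the X share off the constant background was again higher in dense regions than among single peaks. It was 26.2% and 12.6% for 2000 bp and 23.4% and 11.8% for 5000 bp. The other arms had the same direction at 2000 bp, with 66.1% and 28.3% on 2L and 36.1% and 12.3% on 2R. On 3L the shares were 60.8% and 17.8%, and on 3R 27.1% and 15.7%. The part of the local background in the scores was not tested.

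**Figure D3:**
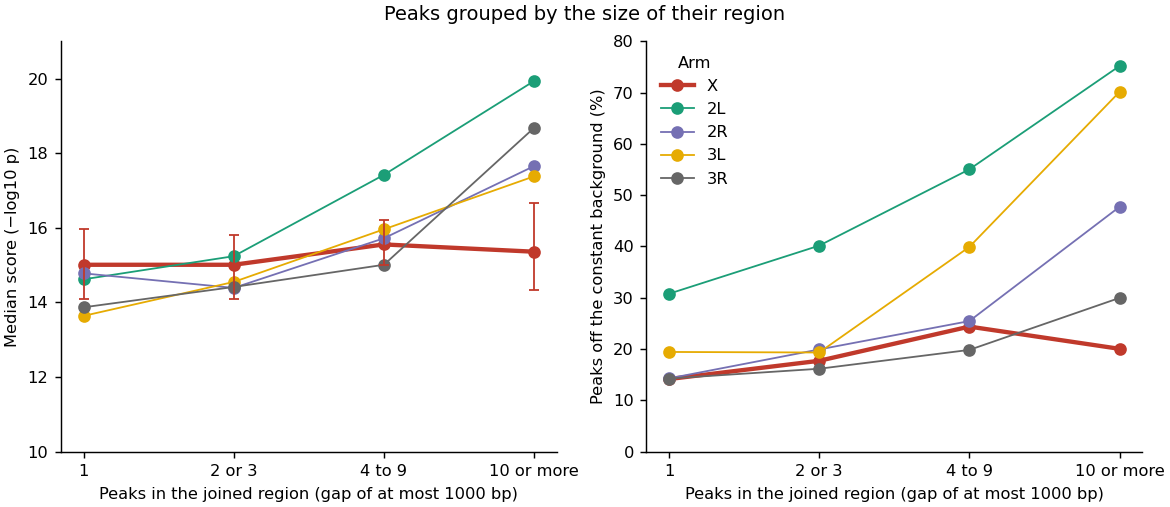
Median score (left, −log10 p, bars for X showing exact binomial intervals of the median) and percent of them off the constant background (right), by the number of peaks in the joined region, for X (thick red) and 4 autosomal arms (thin lines). The X medians stay between 15.01 and 15.56 across region sizes, whereas in regions of 10 or more peaks the other arms have medians from 17.38 to 19.94.

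The strongest X sites lay in regions of all sizes. Of the 20 X peaks with the highest scores, 8 were alone in their region, 10 lay in regions of 2 to 9 peaks and 2 (10%) in regions of at least 10, beside 14.3% of all X peaks. Alone in their region were 18.1% of all X peaks. The widths of the 20 ran from 552 to 6228 bp, with a median of 1846.5 bp, and 15 of them lay on the constant background. The numbers in dense regions among the top 20 of each other arm were 6 on 2L, 2 on 2R, 5 on 3L and 4 on 3R, so 2R had as few as X. Those alone in their region numbered 2 on 2L, 10 on 2R, 8 on 3L and 9 on 3R, so X lay within this range.

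The strongest, from 13277181 to 13278926, scored 382.82 and had rank 5 in the whole list. It was 5.89-fold over background (Poisson interval 5.51 to 6.28), from 929 fragments. It stood alone, with 53.044 kb empty before it and 16.168 kb after it. The strongest peaks of the other large arms were 7.93-fold on 2R, 7.65-fold on 3R, at least 6.06-fold on 2L and 5.85-fold on 3L. The interval of the X peak overlapped that on 3L (5.48 to 6.24) and lay below those on 2R and 3R. The 2L peak lay off the constant background, so it was not ordered against X.

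Next on X were 3 peaks of similar height. The peak from 14803843 to 14805549 scored 348.62, or 5.60-fold (interval 5.24 to 5.98), and had 7 weaker peaks within 10 kb, of which the highest scored 56.24. That from 16860725 to 16862900 scored 313.1 and was the only one of the 4 off the constant background, with a fold of at least 5.29. The peak from 10975130 to 10977076 scored 308.89, or 5.26-fold (interval 4.91 to 5.63). The intervals of neighbours in this order overlap where both lie on the constant background, so the order by fold is not firm.

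After these 4 the scores dropped to 221.67 for the peak from 8385004 to 8387184, which was 4.45-fold and whose nearest neighbour lay 27642 bp away. The peak from 16640527 to 16641935 followed with 199.94, and that from 6003604 to 6004329, only 726 bp wide, with 196.81. The eighth, from 18681931 to 18684901, scored 178.35 and closed the dense region described above. These 8 were the X peaks at a fold of 4 or more.

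The other 12 scored from 110.99 to 154.69, and the first peak below them scored 107.83. Among them was the narrowest of the 20, the 552 bp peak from 20631287 to 20631838, which scored 145 with 98.237 kb empty before it and 31.395 kb after it. Some were very wide, such as those from 12627828 to 12634055 (154.69), from 5793091 to 5799238 (139.31), from 12643842 to 12648732 (128.29) and from 15705099 to 15709714 (110.99). The peak from 6146583 to 6149505 (140.84) had the most neighbours of the 20, with 16 other peaks within 10 kb. The rest were those from 2552451 to 2555214 (141.63), from 12572101 to 12573556 (129.13), from 3056089 to 3057187 (113.57), and from 5812310 to 5813540 (110.99), and the pair at 4.4 Mb given next.

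Several of the strongest X peaks shared a neighbourhood. A stretch of 356.415 kb from 5793091 to 6149505 contained 4 of the 20. Another, of 76.632 kb from 12572101 to 12648732, contained 3, and the first peak outside the 20 began at 12648892, just beyond it. The pair from 4400671 to 4401654 (126.25) and from 4423686 to 4424629 (123.04) was 22.031 kb apart with no peak called between them. These 2 peaks were also close in width, at 984 and 944 bp.

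**Figure D4:**
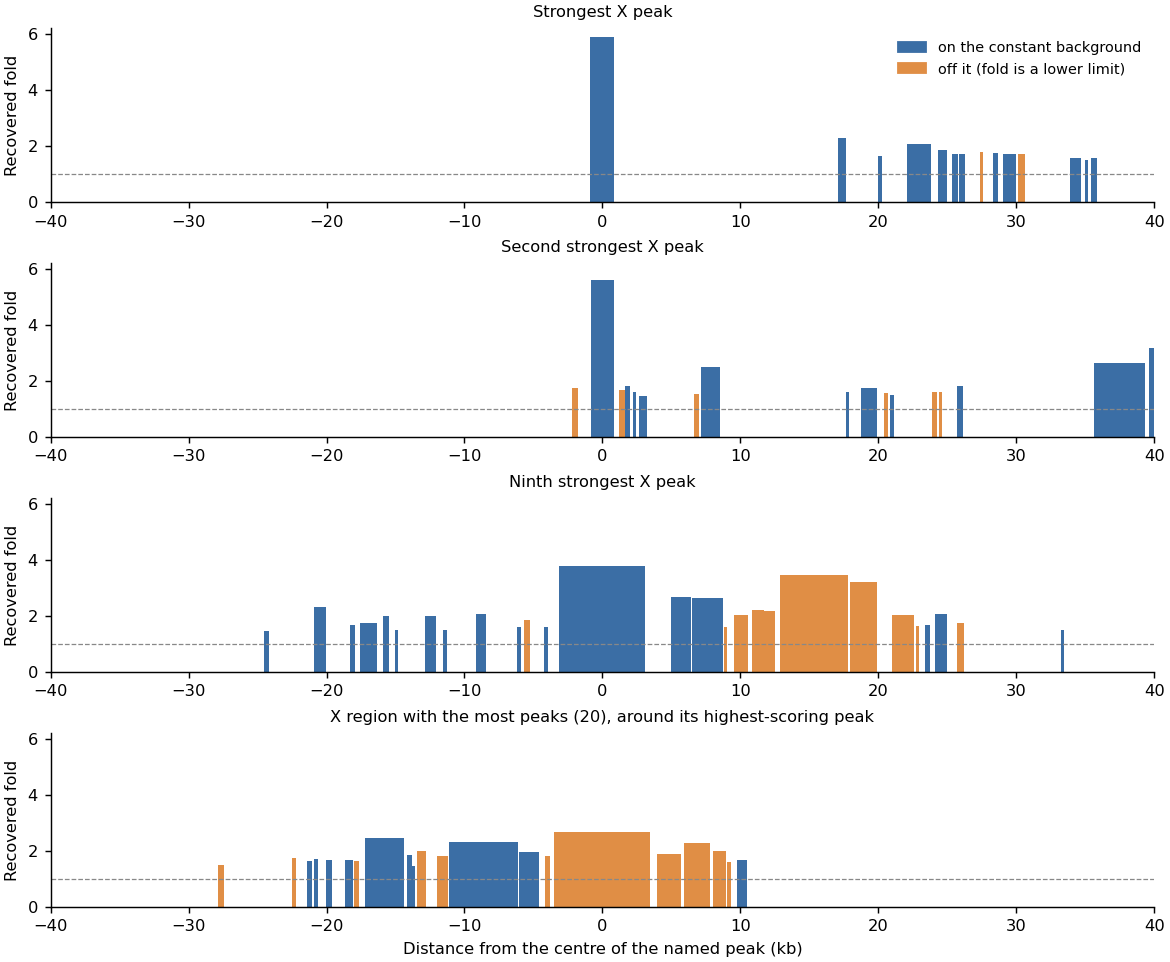
Recovered fold of each called peak (bar height, bar width as called) within 40 kb of the centre of 4 X peaks: the strongest, the second, the ninth, and the highest-scoring peak of the region with the most peaks. Blue bars lie on the constant background and orange bars off it, and the dashed line marks a fold of 1. The true fold of orange bars is at least this high if their scores rest on a higher local background. The strongest peak is alone within 10 kb, while the tallest bar of the 20-peak region, at 2.67-fold, is one of the orange ones.

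Some of the strongest X peaks had no neighbour. In all, 109 X peaks (4.17%) had no other peak within 10 kb of their midpoint, but 6 of the 20 strongest were among them. The 5 highest-scoring isolated peaks were those at 13277181, 8385004, 6003604, 20631287 and 4400671. Isolated X peaks had a median score of 18.43 and reached a fold of 2 in 28.4% of cases (interval 20.2 to 37.9%), against 15.18 and 17.7% for the other 2508. Their median width was 434 bp, against 486 bp, and 11.9% lay off the constant background, against 20.3%.

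The other large arms had 4.24% isolated peaks with a median score of 18.23 on 2L, 3.56% with 16.2 on 2R, 6.57% with 14.9 on 3L and 3.85% with 16.56 on 3R. On these arms a fold of 2 was reached by 23.1% of isolated peaks and 21.1% of the rest on 2L, 26.2% and 18.0% on 2R, 23.1% and 17.3% on 3L, and 25.4% and 16.4% on 3R. The numbers of isolated peaks among the top 20 were 0 on 2L, 6 on 2R, 6 on 3L and 8 on 3R. In share and median score X was thus nearest to 2L, whereas 2L had no isolated peak among its top 20.

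Between the stretches with peaks, X had 46 intervals of at least 100 kb without one. They summed to 8.08 Mb, or 36.5% of the X span, against 44.9% on 2L, 24.5% on 2R, 44.5% on 3L and 34.0% on 3R. The longest, from 11908537 to 12357464, was 448.9 kb. The next were 333.0 kb from 21512719 to 21845708, 332.4 kb from 14142231 to 14474652, 320.7 kb from 2632879 to 2953617, and 302.4 kb from 9672981 to 9975391. X had no interval as long as the 1083 kb of 2L, while its longest exceeded those of 2R (332.4 kb) and 3R (336.3 kb). Sequence that is missing from the build or to which reads cannot be placed would look the same. Sequence before the first peak of an arm counted in its span but not as an interval. That beyond the last peak counted in neither.

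The other long intervals measured from 224.0 to 274.9 kb. They ran from 17197327 to 17472199, from 19798774 to 20051761, from 20663450 to 20898785, from 3775180 to 3999910 and from 4978332 to 5202367. The peaks that bordered the 10 longest intervals were modest, with scores from 8.05 to 40.76. Over all intervals of at least 100 kb, however, 4 of the 20 strongest X peaks stood at an edge. These were the peaks at 4400671 (138.771 kb empty before it), 6003604 (109.59 kb after it), 10975130 (181.548 kb before it) and 16860725 (107.85 kb after it). In all, 90 X peaks (3.44%) bordered such an interval, and 22.2% of them reached a fold of 2 (interval 14.1 to 32.2%), against 18.0% of the rest. Such peaks made up 4.24% on 2L, 2.25% on 2R, 5.00% on 3L and 3.33% on 3R. A fold of 2 was reached by 19.8% of them and 21.2% of the rest on 2L, and by 20% and 18.2% on 2R. The shares were 19.6% and 17.6% on 3L, and 20.7% and 16.6% on 3R. Among the top 20 of the other arms, 0 on 2L, 2 on 2R, 4 on 3L and 3 on 3R stood at such an edge.

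**Figure D5:**
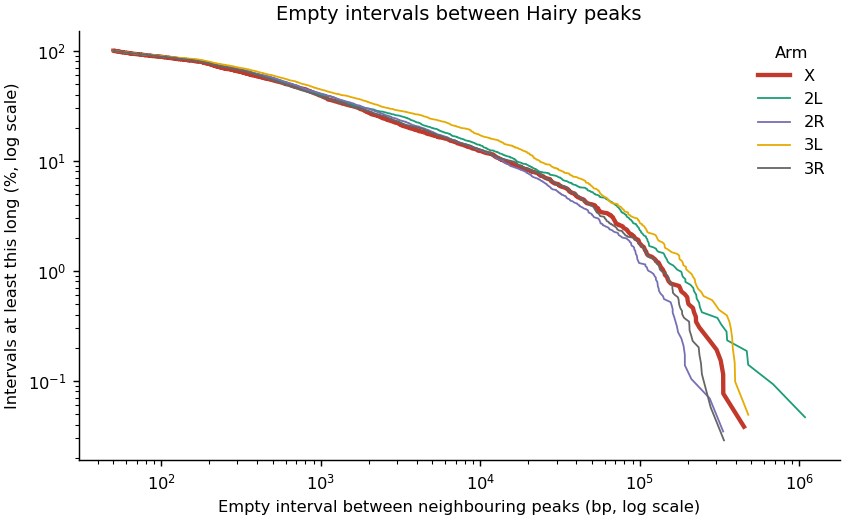
Percent of intervals between neighbouring peaks that are at least as long as the value on the x axis (bp, both axes log), for X (thick red) and 4 autosomal arms. The X curve lies between 2R and 3R on the shorter side and 2L and 3L on the longer side at the far right, where its longest interval is 448.9 kb.

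The 46 empty intervals divided X into 47 stretches of very unequal content. In 9 stretches there were at least 100 peaks each, 1523 together, which is 58.2% of X peaks in 35.7% of the span. The fullest ran from 15189621 to 16862900 and held 399 peaks over 1673 kb, closed by the third strongest X peak. The next, from 18944019 to 19798773, held 220 peaks over 854.8 kb with a highest score of 96.43, and that from 7781901 to 8615040 held 184.

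At the other extreme, 6 stretches held 3 peaks or fewer, 11 peaks together, and 3 of these were a single peak. A single peak from 3449082 to 3449592 scored 29.78, one from 11908184 to 11908536 scored 17.67, and the last X peak, from 22102551 to 22102999, scored 24.45. Small stretches could also hold strong sites. The 4 peaks from 5983194 to 6004329 included one of 196.81, and the 8 peaks from 20527204 to 20663449 included one of 145. The distal end began with 2 peaks from 172038 to 190409 that reached 64.9, followed by a further empty interval up to 381600.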

How the data were processed

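Hairy ChIP-seq peaks in Kc167 cells came as 1 deposited list for 3 ChIP libraries and 1 input library. MACS made the peaks and FlyBase release 5 is the build, per the file headers. The submitters' processing notes name BWA, MACS2, BDGP5 and CASAVA (1.7.0.2, 1.7.0.3) without roles. Not given in the sources used here are the threshold, whether input entered the calling, and any pooling. The deposited score was read from its values as the authors' −log10 p-value: 71.8% of scores lay within 0.01 of a step of the Poisson ladder, against 8.29% for random scores. Off the ladder, the next lower whole count was taken.

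Arms ran from position 1 to the end of the last peak. Peaks were binned by midpoint and joined over gaps of at most 1000 bp. No release 5 sequence or annotation was used here, so peaks are named by coordinates. Named were the 20 highest-scoring and 5 widest X peaks, the 10 fullest regions, the 10 longest intervals, the densest and sparsest bins and the 5 strongest isolated peaks. Stretches between intervals and peaks beside them were named after their values were seen. Peaks and lists were chosen with earlier results of these data known. Scripts (Python 3.11.15, SciPy 1.17.1) were tested on simulated data. Shares carry exact binomial 95% intervals.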

Additional observations from a re-analysis of the deposited data

How the results depend on the processing

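Of 39 recomputed values, 13 stayed within counting error or within 1.5 times the count, 24 moved and 2 changed direction. The ratio of X to autosomal peaks per bin was 1.08. It was 1.03 with peaks within 500 bp joined, 1.03 without 2L, 1.16 without 2R, 1.14 without 3R and 1.21 for peaks on the constant background, and it turned to 0.994 without 3L, the arm with the fewest peaks per bin. The median distance between X neighbours, 1551.5 bp, was 3230.5 bp among the top 50% by score and 6800 bp among the top 25%, where fewer peaks remain, and 4212 bp between joined peaks. The 31 dense X regions became 5, 59 and 84 at gaps of 500, 2000 and 5000 bp, and 1 for the top 50% of peaks. The densest 10% of bins held 40.5% of X peaks in bins of 50 kb, 17.4% in bins of 500 kb and 37.5% of the top 25%, against 31.6%. Empty bins made up 33.4% at 50 kb and 0% at 500 kb, against 16.7%. Empty intervals numbered 13 at 200 kb or more and 104 at 50 kb or more, against 46. With peaks within 500 bp joined, the share at a fold of 2 was 27.4% in place of 18.2%, the median score 18.17 in place of 15.24 and the median width 942.5 bp in place of 483 bp. The share off the constant background was 22.5% within 0.006 and 17.5% within 0.02 of the ladder, against 19.9%. The ratio of scores in dense regions to those of single X peaks turned from 1.02 to 0.876 at a gap of 5000 bp, and the cause was not tested. At that gap the same ratio was 0.917 on 3R and 1.00 on 2R, against 1.35 and 1.19 at 1000 bp. This ratio and the share of isolated X peaks at a fold of 2, which ran from 27.1% to 31.5%, were chosen after seeing the data with their alternatives.

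No paired analysis was possible because single libraries have no values here, and no replicate was left out. Depth is unknown, so what it hides among weak peaks was not assessed.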
